A study of Mus musculus with 11 samples.

Results

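The vessel genes of lymphocyte entry were examined in lacrimal glands of male NOD mice, a strain that develops autoimmune inflammation of this gland in males. The list was set by name and holds 10 genes, beside 19058 genes in the main count table: *Glycam1*, *Madcam1*, *Vcam1*, *Icam1*, *Sele*, *Selp*, *Chst4*, *Fut7* and *Ackr1*, with the general endothelial gene *Cdh5* for comparison. Of these, 9 were in the main table and 8 were among the 13937 genes tested, those whose counts in the 3 WT mice came to 30 or more. *Madcam1* was not in the main table, and *Sele* had too few counts to be tested. Since only WT counts decided this, a gene with few counts enters the tests through WT alone.

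RNA was taken from whole glands of 3 WT, 5 *Tlr7* KO and 3 *Ifnar1* KO mice, all male and all on the NOD background, with 1 library per mouse. The WT and *Tlr7* KO mice were 20 to 22 weeks old, and the age of the *Ifnar1* KO mice was not given in the sources used here. The *Tlr7* KO mice carry a CRISPR/Cas9 deletion of 2 base pairs and the *Ifnar1* KO mice the em16 allele on both chromosomes. A further *Ifnar1* KO library was left out in the study because it grouped with WT and its gland was as inflamed as WT glands, so the *Ifnar1* KO group was chosen in part on its outcome. Every *Ifnar1* KO value below, and each statement that these mice lay apart from WT, is for the mice that were kept. Both alleles are carried by all cells of the mouse and not by endothelium alone. The same 3 WT mice serve both knockout comparisons, which are therefore not independent of each other.

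Lymphocytes leave the blood through postcapillary venules in steps. In lymph nodes, and in chronically inflamed tissue, some venules take on the form of high endothelial venules, whose tall endothelial cells carry sulphated and fucosylated sugars on which lymphocytes roll. Rolling cells are then activated by chemokines and arrest when their integrins bind VCAM-1, ICAM-1 or, in mucosal sites, MAdCAM-1. The selectins of the endothelium itself, E-selectin and P-selectin, are kept for rapid recruitment. VE-cadherin, the product of *Cdh5*, joins endothelial cells to each other in all vessels and serves here as the general vessel gene.

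The libraries held 20512315 to 28814250 counts assigned to genes, and 3 counts corresponded to between 0.082 and 0.158 CPM (counts scaled to a library of fixed size, with TMM factors) across the mice. All of the values below rest on counting of reads, and floors and counting intervals cover counting error only. *Tlr7* stood at 1.52 to 2.94 CPM in WT, 0.494 to 0.949 CPM in *Tlr7* KO and 0.251 to 0.822 CPM in *Ifnar1* KO mice. *Ifnar1* stood at 10.5 to 15.1 CPM in WT, 8.34 to 11.2 CPM in *Tlr7* KO and 8.34 to 9.63 CPM in *Ifnar1* KO mice, so that transcripts of both edited genes were still counted in their own knockout. Gland epithelial genes, 6 in number with *Aqp5* and *Epcam* among them, summed to 520.9 to 655.9 CPM in WT, 693.0 to 789.8 in *Tlr7* KO and 708.5 to 739.0 in *Ifnar1* KO mice, and none was at 0 in any group. With TMM factors this sum was higher in every knockout mouse than in any WT mouse. The factors of WT mice 1 to 3 were 1.426, 0.873 and 1.481, and without TMM factors the sums of the groups overlap. The part of the epithelial genes in the lower values of the vessel genes below was not tested.

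Per kilobase of the longest coding transcript, *Glycam1* was the most abundant of the vessel genes in WT glands at 10.1 ± 3.25 CPM per kb (SD, n = 3). It was followed by *Vcam1* at 5.54 ± 1.66 and *Icam1* at 3.93 ± 1.76 CPM per kb, and these neighbours overlapped in range although each WT mouse kept the order. A gap separated *Icam1* from *Ackr1* at 0.852 ± 0.326 and *Cdh5* at 0.645 ± 0.153 CPM per kb, whose ranges overlapped. *Fut7* (0.255 ± 0.136), *Chst4* (0.203 ± 0.0768), *Selp* (0.115 ± 0.0762) and *Sele* (0.0643 ± 0.0673 CPM per kb) lay below *Cdh5* in every WT mouse and overlapped with their neighbours. In *Tlr7* KO glands *Glycam1*, *Icam1* and *Vcam1* were level at 1.15 ± 1.01, 1.14 ± 0.266 and 1.13 ± 0.601 CPM per kb (SD, n = 5), while *Chst4* was at 0.0264 ± 0.0291 and *Sele* at 0.0611 ± 0.0371 CPM per kb, with *Sele* above *Chst4* in 3 of 5 mice and both near the floor.

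The positions are those of GENCODE M21 (GRCm38). *Sele* and *Selp* are neighbours at chr1:164048234-164057677 and chr1:164115264-164150026 on the plus strand, and *Ackr1* lies on the minus strand at chr1:173331886-173333750. *Chst4* and *Cdh5* share chromosome 8, at chr8:110029153-110039740 on the minus strand and chr8:104101625-104144511 on the plus strand. *Glycam1* lies at chr15:103562759-103565081 on the minus strand, *Vcam1* at chr3:116109949-116129688 on the minus strand, and *Icam1* at chr9:21015985-21028817 on the plus strand. *Fut7* lies at chr2:25423267-25426374 and *Madcam1* at chr10:79664559-79668537, both on the plus strand. All 10 are protein-coding.

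Promoter windows of 250 bases before to 50 bases after the annotated start were read from RefSeq (GRCm38.p6), which held 8 of the 10 genes and lacked *Vcam1* and *Cdh5*. They are shown for *Glycam1* and *Chst4*, which make and decorate the venular selectin ligand, for *Icam1*, for *Selp*, which differed from these in its values below, and for *Madcam1*, which had 1 count in all. Capitals mark matches, on either strand and with no overlap between motifs, to the NF-kB consensus, the AP-1 motif TGANTCA, the interferon regulatory factor motif GAAANNGAA or the TATA box TATAAA. Each is written in the direction of its gene. Sites that depart from these motifs were not searched for, so small letters do not show that a site is absent.
Glycam1: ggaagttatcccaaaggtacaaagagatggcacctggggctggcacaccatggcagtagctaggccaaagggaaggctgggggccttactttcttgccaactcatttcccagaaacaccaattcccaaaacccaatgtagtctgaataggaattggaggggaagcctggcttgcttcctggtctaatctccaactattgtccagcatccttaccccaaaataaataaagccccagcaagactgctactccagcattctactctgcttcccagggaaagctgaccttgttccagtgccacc
Chst4: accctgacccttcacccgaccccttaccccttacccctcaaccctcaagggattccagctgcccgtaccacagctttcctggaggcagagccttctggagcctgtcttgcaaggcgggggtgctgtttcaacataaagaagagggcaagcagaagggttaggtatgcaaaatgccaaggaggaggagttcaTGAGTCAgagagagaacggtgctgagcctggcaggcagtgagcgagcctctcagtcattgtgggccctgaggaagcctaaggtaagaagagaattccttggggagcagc
Icam1: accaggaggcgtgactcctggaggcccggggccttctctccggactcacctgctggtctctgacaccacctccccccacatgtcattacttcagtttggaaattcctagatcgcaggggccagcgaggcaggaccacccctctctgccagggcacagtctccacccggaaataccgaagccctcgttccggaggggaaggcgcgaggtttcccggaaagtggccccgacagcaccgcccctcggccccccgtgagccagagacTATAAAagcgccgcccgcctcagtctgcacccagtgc
Selp: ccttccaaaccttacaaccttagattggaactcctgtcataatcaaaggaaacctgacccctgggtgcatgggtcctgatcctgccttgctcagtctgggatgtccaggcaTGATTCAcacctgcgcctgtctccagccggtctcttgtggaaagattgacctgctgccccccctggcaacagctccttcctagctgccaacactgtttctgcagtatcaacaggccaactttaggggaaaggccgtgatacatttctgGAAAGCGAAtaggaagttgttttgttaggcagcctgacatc
Madcam1: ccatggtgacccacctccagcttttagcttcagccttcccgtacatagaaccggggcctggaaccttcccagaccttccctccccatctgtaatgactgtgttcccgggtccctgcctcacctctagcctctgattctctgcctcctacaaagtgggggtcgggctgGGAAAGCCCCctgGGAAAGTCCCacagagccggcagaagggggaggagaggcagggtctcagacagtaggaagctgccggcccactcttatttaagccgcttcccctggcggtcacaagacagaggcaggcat

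The windows lie at chr15:103565032-103565331 (minus strand) for *Glycam1*, chr8:110039285-110039584 (minus strand) for *Chst4*, chr9:21015690-21015989 for *Icam1*, chr1:164115014-164115313 for *Selp* and chr10:79664309-79664608 for *Madcam1*. The RefSeq starts of *Chst4* and *Icam1* differ from the GENCODE gene ends given above. No match was found in the windows of *Glycam1*, *Ackr1* and *Fut7*. *Chst4* held an AP-1 match at -59 from the RefSeq start, and *Selp* an AP-1 match at -139 and an interferon regulatory factor match at 10. *Icam1* held a TATA box at 14 after the RefSeq start, which lies before the GENCODE start at 21015985. *Madcam1* held 2 NF-kB matches on the opposite strand, at -83 and -70. *Sele* held an interferon regulatory factor match at -208, an AP-1 match at -73 and a TATA box at -49. Of the 32851 promoters in the table, 4.51% held the NF-kB consensus, 8.56% the interferon regulatory factor motif, 7.81% the AP-1 motif and 13.6% the TATA box, so that these matches are a description of the letters and do not set the genes apart.

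In *Tlr7* KO against WT glands, 6 of the 8 tested vessel genes were lower and none was higher at an adjusted p under 0.05 (edgeR quasi-likelihood test, Benjamini-Hochberg over all genes tested). Over all tested genes 17.4% were lower and 15.3% higher, or 2429 of 4564 calls lower. This split depends on the TMM scaling. By library size only, 4275 of 4398 *Tlr7* KO calls were lower. For *Ifnar1* KO glands 1288 of 1339 were, against 1735 of 2677 with TMM. The medians of all genes by library size were -0.54 and -0.31, and 7 and 2 vessel genes were lower. With TMM the 6 lower vessel genes in *Tlr7* KO glands were *Glycam1*, *Chst4*, *Vcam1*, *Icam1*, *Ackr1* and *Cdh5*, and the median over the 8 log2 fold changes was -1.76 against -0.04 over all genes. In 5 genes, all of the 6 but *Cdh5*, every *Tlr7* KO mouse lay below every WT mouse, which was so for 14.2% of all tested genes. Without WT 1 or without WT 3 the number of vessel genes called was 3, *Glycam1*, *Vcam1* and *Icam1*, which passed without any of the 8 mice. *Chst4* entered the tests through its WT counts alone, and under filterByExpr, an edgeR filter on counts that dropped it, 5 of 7 vessel genes were lower.

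In *Ifnar1* KO against WT glands, 3 of the 8 genes, *Vcam1*, *Icam1* and *Cdh5*, were lower and none was higher, where 12.4% of all tested genes were lower and 6.76% higher. The median over the 8 log2 fold changes was -2.26 against -0.02 over all genes. Every *Ifnar1* KO mouse lay below every WT mouse in 7 of the 8, all but *Selp*, which was so for 21.1% of all tested genes, in a group from which a WT-like mouse had been left out. *Chst4* and *Fut7* are among the 7 through their WT counts alone, and under filterByExpr, which dropped both, 4 of 6 vessel genes were lower with a median of -1.89. Calls in this comparison hung on single mice. None of the 8 genes was called without WT 1, and none without WT 3, *Ifnar1* KO 1 or 3. Over all tested genes these 4 removals left 13, 121, 0 and 0 calls, against 2677 with every mouse. Without WT 2 the number of vessel genes called was 5.

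Between the knockouts none of the 8 genes was called, where 1.79% of all tested genes were. At an unadjusted p under 0.05 only *Selp* passed, where 16.3% of all tested genes did, and DESeq2 also called none. The log2 fold change of *Ifnar1* KO over *Tlr7* KO was 0.52 for *Chst4*, -0.94 for *Fut7*, 0.21 for *Ackr1* and -0.39 for *Cdh5* (edgeR adjusted p = 0.844, 0.611, 0.85 and 0.516). Without *Ifnar1* KO 2 that of *Fut7* was -2.25 (edgeR adjusted p = 0.243). In a whole-gland library fewer vessel cells and less RNA per cell cannot be told apart, and this holds for every gene below.

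**Figure D1:**
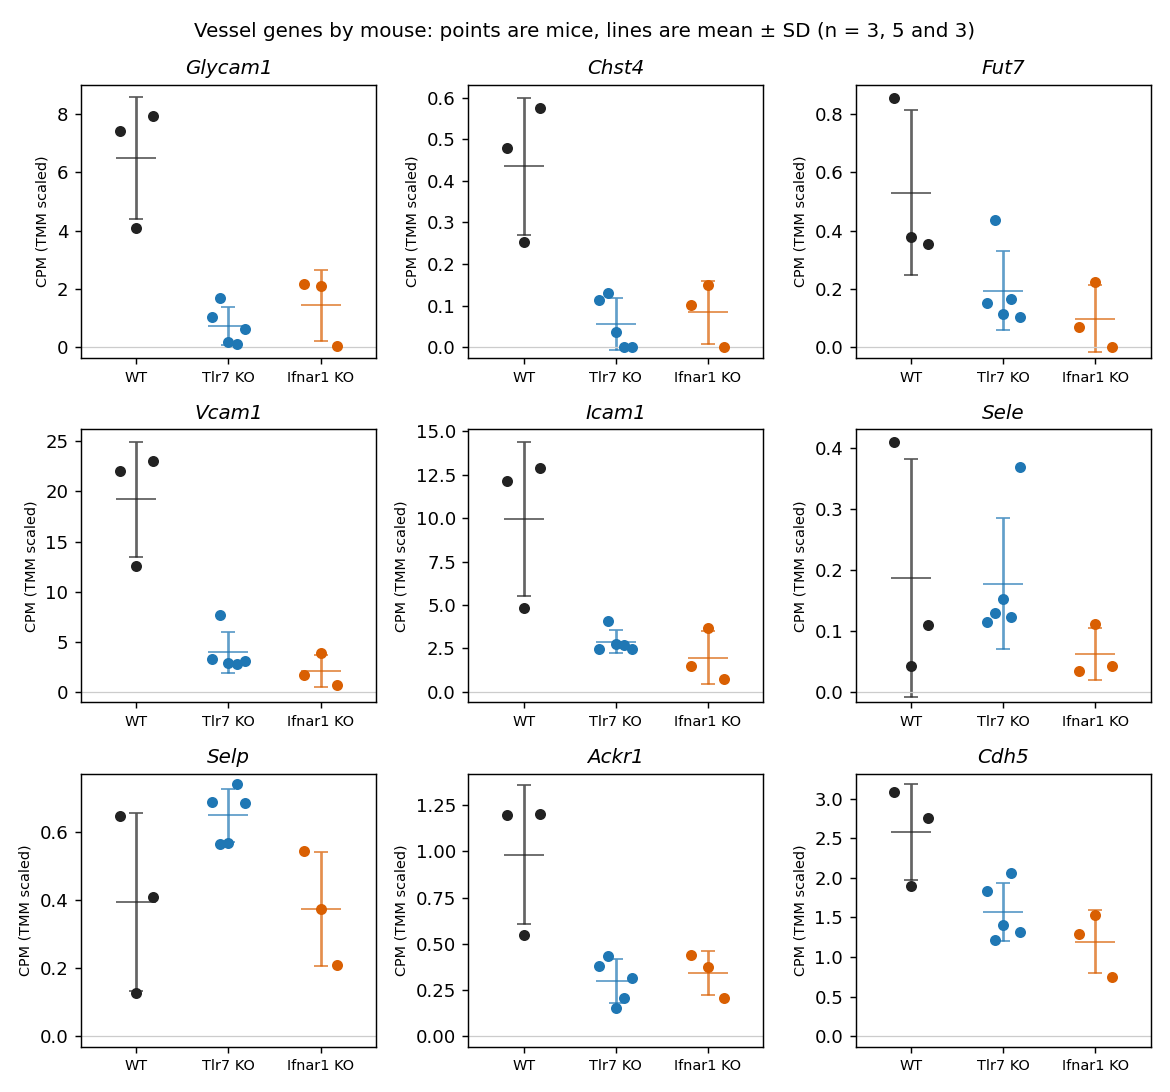
CPM (TMM scaled, linear axis for each gene) of the 9 vessel genes with counts, by group, where points are mice and lines with bars are the mean ± SD. *Glycam1*, *Chst4*, *Vcam1*, *Icam1* and *Ackr1* lay lower in every knockout mouse than in any WT mouse, while *Sele* and *Selp* overlapped with WT in both knockouts.

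*Glycam1* encodes a secreted, mucin-like scaffold that presents the venular selectin ligand in high endothelial venules. Its level was 7.42, 4.09 and 7.92 CPM in WT mice 1 to 3. It was 1.03, 1.69, 0.19, 0.123 and 0.633 CPM in *Tlr7* KO mice 1 to 5, and 2.18, 2.09 and 0.0419 CPM in *Ifnar1* KO mice 1 to 3. No knockout mouse reached the lowest WT mouse, and *Ifnar1* KO 3, with 1 count, stood far below the other two *Ifnar1* KO mice, with 64 and 56 counts. *Glycam1* fell by 3.15 ± 0.584 on the log2 scale (SE) in *Tlr7* KO glands (edgeR adjusted p = 0.00486), an 8.86-fold lower level. In *Ifnar1* KO glands the log2 fold change was -2.19 ± 0.783 (edgeR adjusted p = 0.0869), which did not pass the test. Between *Tlr7* KO and *Ifnar1* KO glands it was 0.98 ± 0.872 (edgeR adjusted p = 0.613).

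*Chst4* encodes the sulphotransferase that adds sulphate to the venular selectin ligand, and it had few counts. WT mice 1 to 3 had 14, 6 and 21 counts, or 0.479, 0.253 and 0.574 CPM. The *Tlr7* KO mice had 3, 3, 1, 0 and 0 counts and the *Ifnar1* KO mice 3, 4 and 0. No knockout mouse had more than 4 counts, so both knockout groups lay at or near the level that 3 counts set. The ratio of CPM over summed counts was 0.129 (95% counting interval 0.0488 to 0.29) for *Tlr7* KO over WT and 0.191 (0.0723 to 0.43) for *Ifnar1* KO over WT. The fitted log2 fold change was -2.82 ± 0.712 in *Tlr7* KO glands (edgeR adjusted p = 0.0157) and -2.33 ± 0.783 in *Ifnar1* KO glands (edgeR adjusted p = 0.074). The *Tlr7* KO call was lost without WT 1 (adjusted p = 0.0527) or WT 3 (adjusted p = 0.0656), and the *Ifnar1* KO difference passed without WT 2 (adjusted p = 0.0395). Since *Chst4* was tested only because of its WT counts, and was tested neither under filterByExpr nor in the other count table, its call is given as a description.

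*Fut7* encodes the fucosyltransferase that completes selectin ligands, in venules and in leukocytes. The WT mice had 0.855, 0.379 and 0.355 CPM from 25, 9 and 13 counts. The *Tlr7* KO mice had 0.153, 0.435, 0.114, 0.165 and 0.106 CPM, and the *Ifnar1* KO mice 0.068, 0.224 and 0 CPM. *Tlr7* KO 2 overlapped with WT, and the *Ifnar1* KO mice lay below all WT mice. The log2 fold change was -1.43 ± 0.536 in *Tlr7* KO (edgeR adjusted p = 0.0673) and -2.39 ± 0.862 in *Ifnar1* KO glands (edgeR adjusted p = 0.0883), neither of which passed. Without *Ifnar1* KO 2 the second was -3.71 (adjusted p = 0.0638). The *Tlr7* KO difference passed without *Tlr7* KO 2 (-1.94, adjusted p = 0.0195) or without WT 2 (-1.60, adjusted p = 0.0459).

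*Madcam1* encodes the addressin that binds integrin alpha4 beta7 in mucosal venules. In the other count table it had 0 counts in every library used here but *Tlr7* KO 2, which had 1 count, from totals of 12233586 to 16621073 counts. A count of 0 allows up to 3 counts in each of these totals. It was thus not detectable at this depth in WT glands, where *Glycam1* had 65 to 217 counts in the same table.

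*Vcam1* and *Icam1* encode the ligands of the integrins VLA-4 and LFA-1 and are made by activated endothelium and also by other cells, such as stromal and antigen-presenting cells. *Vcam1* stood at 22.02, 12.6 and 23.0 CPM in the WT mice. It stood at 3.25, 7.65, 2.89, 2.80 and 3.06 CPM in the *Tlr7* KO mice and at 1.70, 3.85 and 0.67 CPM in the *Ifnar1* KO mice. Both knockouts lay wholly below WT, with *Tlr7* KO 2 apart from the other 4 *Tlr7* KO mice. *Vcam1* fell by 2.30 ± 0.34 on the log2 scale in *Tlr7* KO (edgeR adjusted p = 0.00218) and by 3.23 ± 0.534 in *Ifnar1* KO glands (edgeR adjusted p = 0.0216). The *Ifnar1* KO call was lost on leaving out WT 1 or 3 or *Ifnar1* KO 1 or 3, with adjusted p = 0.0641, 0.0624, 0.0771 and 0.0799 and log2 fold changes of -3.13, -3.08, -3.07 and -2.84. Without *Ifnar1* KO 2 it was -4.01 (adjusted p = 0.0287).

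*Icam1* stood at 12.1, 4.85 and 12.9 CPM in the WT mice. It stood at 2.49, 4.08, 2.77, 2.68 and 2.48 CPM in the *Tlr7* KO mice and at 1.497, 3.66 and 0.753 CPM in the *Ifnar1* KO mice. WT 2 was the lowest WT mouse and came close to *Tlr7* KO 2, yet the groups did not overlap. *Icam1* fell by 1.79 ± 0.3 on the log2 scale in *Tlr7* KO (edgeR adjusted p = 0.00329) and by 2.37 ± 0.581 in *Ifnar1* KO glands (edgeR adjusted p = 0.0338). The *Ifnar1* KO call was lost without WT 1 or 3 or *Ifnar1* KO 1 or 3 (adjusted p = 0.0937, 0.0968, 0.118 and 0.0985), and without *Ifnar1* KO 2 the value was -3.15 (adjusted p = 0.0296). Between the knockouts the log2 fold change was -0.55 ± 0.407 for *Icam1* (edgeR adjusted p = 0.532) and -0.92 ± 0.507 for *Vcam1* (edgeR adjusted p = 0.402). *Icam1* passed only without *Ifnar1* KO 2 (-1.35, adjusted p = 0.0346), where *Vcam1* was at -1.705 (adjusted p = 0.0785).

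*Selp* encodes P-selectin, which endothelial cells and platelets store in granules, and it did not follow these genes. It stood at 0.65, 0.127 and 0.41 CPM in the WT mice, 0.689, 0.565, 0.57, 0.741 and 0.686 CPM in the *Tlr7* KO mice and 0.544, 0.373 and 0.209 CPM in the *Ifnar1* KO mice. WT and *Tlr7* KO overlapped through WT 1, while in the main table the *Ifnar1* KO mice lay below the *Tlr7* KO mice. The log2 fold change was 0.68 ± 0.43 in *Tlr7* KO against WT (edgeR adjusted p = 0.25), -0.11 ± 0.635 in *Ifnar1* KO against WT (edgeR adjusted p = 0.918) and -0.77 ± 0.341 in *Ifnar1* KO against *Tlr7* KO glands (edgeR adjusted p = 0.302). None passed this test. Taken alone, the ratio of CPM over summed counts was 1.57 for *Tlr7* KO over WT (95% counting interval 1.05 to 2.39, two-sided exact permutation p = 0.0536). It was 0.597 for *Ifnar1* KO over *Tlr7* KO (0.38 to 0.917), with two-sided exact permutation p = 0.0179, unadjusted and the smallest possible. In the other count table the knockouts overlapped, with 8, 3, 5, 6 and 7 counts in *Tlr7* KO and 8, 2 and 4 counts in *Ifnar1* KO mice. Platelet genes moved in no common direction in *Tlr7* KO glands, since of 3 tested *Itgb3* was lower (-2.30) and *Itga2b* higher (1.13), and their sum was 2.40 to 8.45 CPM in WT, 4.67 to 5.49 in *Tlr7* KO and 2.99 to 4.86 in *Ifnar1* KO mice, with *Gp9* not in the table. Their part in *Selp* was not tested.

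*Sele* encodes E-selectin, which endothelium makes after activation, and it was near the floor. It had 12, 1 and 4 counts in WT, 3, 3, 4, 3 and 7 in *Tlr7* KO and 1, 3 and 1 in *Ifnar1* KO mice. WT 1 and *Tlr7* KO 5 were the highest, and both knockouts overlapped with WT, while the *Ifnar1* KO mice lay just below the *Tlr7* KO mice in CPM. The ratio of CPM over summed counts was 0.888 for *Tlr7* KO over WT (95% counting interval 0.442 to 1.8, two-sided exact permutation p = 0.964) and 0.329 for *Ifnar1* KO over WT (0.0949 to 0.929, two-sided exact permutation p = 0.4), where the counting interval leaves out the spread between mice. For *Ifnar1* KO over *Tlr7* KO it was 0.371 (0.109 to 1.02, two-sided exact permutation p = 0.107).

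*Ackr1* encodes a decoy receptor that carries chemokines across venular endothelium and is also made by red cell precursors. It stood at 1.20, 0.548 and 1.20 CPM in WT, 0.383, 0.435, 0.152, 0.206 and 0.317 CPM in *Tlr7* KO and 0.442, 0.373 and 0.209 CPM in *Ifnar1* KO mice. Both knockouts lay wholly below WT. *Ackr1* fell by 1.73 ± 0.407 on the log2 scale in *Tlr7* KO glands (edgeR adjusted p = 0.012), a call lost without WT 1 (adjusted p = 0.0508) or WT 3 (adjusted p = 0.0541). In *Ifnar1* KO glands the log2 fold change was -1.54 ± 0.466 (edgeR adjusted p = 0.0568), and it passed without WT 2 (-1.81, adjusted p = 0.0152). None of the 5 erythroid genes tested was called in either knockout, with sums of 221 to 382 CPM in WT, 197 to 401 in *Tlr7* KO and 220 to 304 in *Ifnar1* KO mice.

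*Cdh5* stood at 3.08, 1.90 and 2.76 CPM in WT, 1.84, 1.22, 1.41, 2.06 and 1.32 CPM in *Tlr7* KO and 1.29, 1.53 and 0.753 CPM in *Ifnar1* KO mice. *Tlr7* KO 4 lay above WT 2, so those groups overlapped, while the *Ifnar1* KO mice lay below all WT mice. *Cdh5* fell by 0.72 ± 0.235 on the log2 scale in *Tlr7* KO (edgeR adjusted p = 0.0418) and by 1.14 ± 0.327 in *Ifnar1* KO glands (edgeR adjusted p = 0.0498). Both calls lay at the threshold. The *Tlr7* KO call was lost without WT 1, WT 3 or *Tlr7* KO 1, 2, 3 or 5 (adjusted p = 0.157, 0.128, 0.0587, 0.0752, 0.0897 and 0.082), and the *Ifnar1* KO call without any mouse but WT 2 (adjusted p = 0.066 to 0.155). In the other count table neither passed (adjusted p = 0.0915 and 0.0579). The *Tlr7* KO call was also lost in a single fit of all mice (0.0528), and the *Ifnar1* KO call with RLE size factors (0.0524), by library size only (0.096) and with no gene filter (0.0566).

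Other general endothelial genes were set beside *Cdh5* from a list of 15, of which 13 were tested. In *Tlr7* KO glands 1 of the 13 was lower and 2 were higher, beside 17.4% and 15.3% of all tested genes, with a median log2 fold change of -0.14. *Pecam1*, an adhesion molecule of endothelium that leukocytes and platelets also carry, fell by 1.32 ± 0.232 (edgeR adjusted p = 0.00397). *Kdr* and *Flt1*, the receptors of vascular endothelial growth factor, rose by 0.89 ± 0.294 (edgeR adjusted p = 0.0434) and 0.60 ± 0.167 (edgeR adjusted p = 0.0231). The size of both rises depends on the TMM scaling, since by library size only the median of all genes was -0.54 in *Tlr7* KO glands. In *Ifnar1* KO glands *Pecam1* fell by 1.96 ± 0.316 (edgeR adjusted p = 0.0216), the other 12 were not called, and the median was -0.57. Without WT 1, WT 3 or *Tlr7* KO 1, 3 or 4 a single gene of the 13 was called in *Tlr7* KO glands, and none was in *Ifnar1* KO glands without WT 1, WT 3 or *Ifnar1* KO 1 or 3. Only *Pecam1* had a lower log2 fold change than *Cdh5* in either knockout. The sum of the 15 genes was 43.0 to 58.4 CPM in WT, 40.8 to 55.6 in *Tlr7* KO and 30.6 to 49.1 in *Ifnar1* KO mice, with none at 0 and with the groups overlapping.

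**Figure D2:**
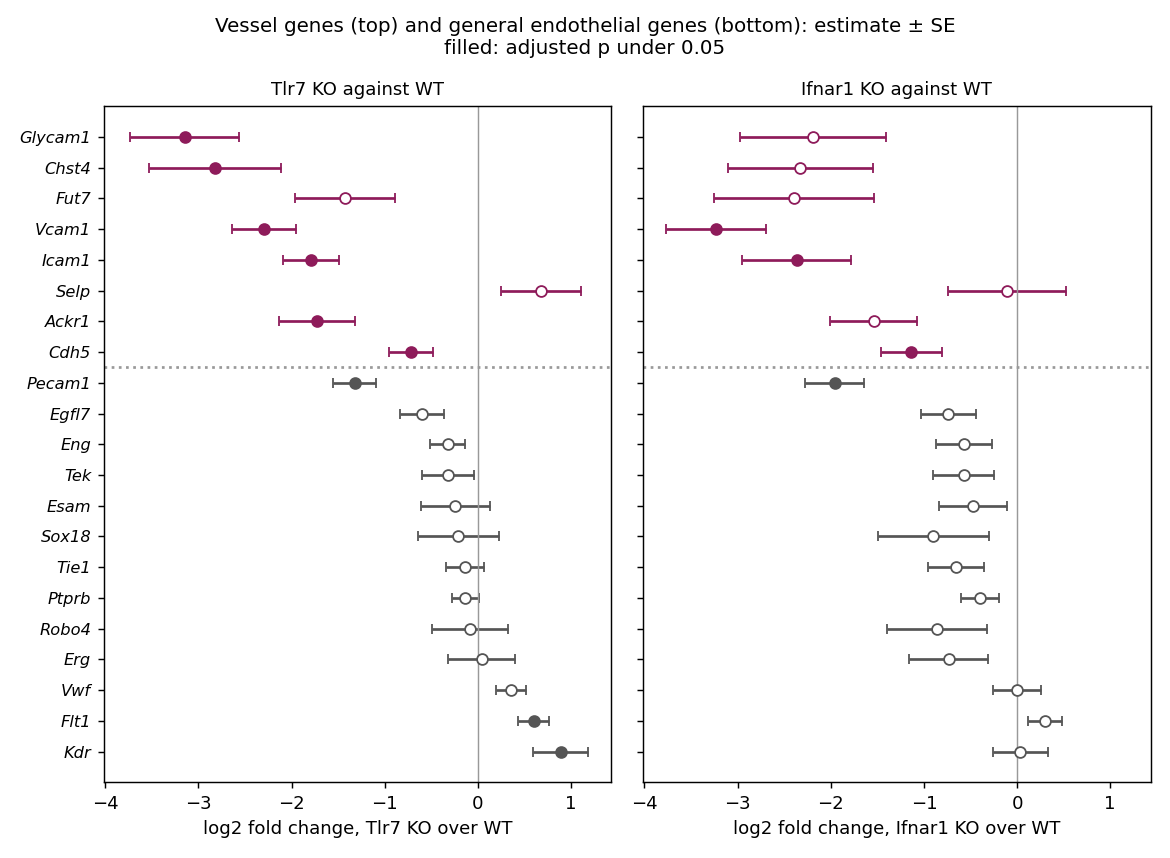
Fitted log2 fold change ± SE of each knockout over WT for the 8 tested vessel genes (purple, top) and the 13 tested general endothelial genes (grey, bottom), filled where the adjusted p was under 0.05. *Glycam1*, *Chst4*, *Vcam1*, *Icam1* and *Ackr1* lay left of every general endothelial gene in *Tlr7* KO glands, while *Selp* lay among the rightmost.

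The fit was repeated with library sizes scaled by the summed endothelial genes, *Cdh5* included, which asks whether a gene differed relative to that sum. The largest parts of the sum in WT glands were *Vwf* (mean 16.4 CPM) and *Pecam1* (13.9 CPM). *Pecam1*, which leukocytes also carry, was itself called lower in both knockouts. This limits the sum as a measure of endothelium, here and in the ratios below. Over all genes the median went from -0.04 to 0.09 in *Tlr7* KO and from -0.02 to 0.55 in *Ifnar1* KO glands under this scaling. In *Tlr7* KO glands 5 of the 8 vessel genes were then lower, *Glycam1* (-2.93), *Chst4* (-2.66), *Vcam1* (-2.10), *Icam1* (-1.59) and *Ackr1* (-1.53), where 9.03% of all tested genes were lower. *Cdh5* at -0.57 was no longer called. In *Ifnar1* KO glands 4 were lower, *Vcam1* (-2.77), *Fut7* (-1.91), *Icam1* (-1.88) and *Glycam1* (-1.66), where 9.74% of all tested genes were lower. *Fut7* had 2, 6 and 0 counts in these mice, entered the test through its WT counts alone and was not tested under filterByExpr in this comparison, so its call is a description. The edgeR adjusted p of *Glycam1* went from 0.0869 with TMM to 0.000226, and that of *Vcam1* from 0.0216 to 1.16e-11. Yet both log2 fold changes were smaller in size than with TMM (-2.19 and -3.23). Single mice were not left out under this scaling, so these calls in *Ifnar1* KO glands are a description too. The log2 fold change of *Selp* came to 0.88 for *Tlr7* KO and 0.51 for *Ifnar1* KO on this scale and was not called.

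Each gene was also divided by *Cdh5* in the same library, with 0.5 counts added to both, and the groups were compared with a two-sided exact permutation test without adjustment over the 8 genes. With 3 and 5 mice the test cannot give a p below 0.0179, and with 3 and 3 mice not below 0.1. The ratio was not computed for all genes, so no share of all genes stands beside groups that do not overlap. In WT mice 7.12, 6.58 and 8.31 counts of *Vcam1* were found per *Cdh5* count, a range narrower than that of its CPM. The *Tlr7* KO mice had 1.76, 6.19, 2.04, 1.36 and 2.29, and the *Ifnar1* KO mice 1.31, 2.49 and 0.892. *Tlr7* KO 2 alone came close to WT. The ratio of *Vcam1* to *Cdh5* was 3.13-fold lower in *Tlr7* KO (exact permutation p = 0.0357) and 5.11-fold lower in *Ifnar1* KO glands (exact permutation p = 0.1). Without *Tlr7* KO 1, 3, 4 or 5 in turn the first of these had exact permutation p = 0.0571, with log2 differences of -1.54, -1.60, -1.45 and -1.64. In the other count table it was -1.78 (exact permutation p = 0.0536).

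The counts of *Selp* per *Cdh5* count were 0.215, 0.0769 and 0.153 in WT, 0.381, 0.474, 0.413, 0.366 and 0.529 in *Tlr7* KO and 0.429, 0.253 and 0.297 in *Ifnar1* KO mice. Every knockout mouse lay above every WT mouse. The ratio was 3.15-fold higher in *Tlr7* KO (exact permutation p = 0.0179, the smallest possible) and 2.34-fold higher in *Ifnar1* KO glands (exact permutation p = 0.1, the smallest possible). *Cdh5* itself was lower in both knockouts, and in the other count table the log2 difference of the *Selp* ratio was 0.73 rather than 1.65 in *Tlr7* KO glands (exact permutation p = 0.0536). In *Ifnar1* KO glands that table gave 0.56 rather than 1.22 (exact permutation p = 0.4), and *Ifnar1* KO 2, with 2 *Selp* and 27 *Cdh5* counts, lay below all WT mice there. Over the summed endothelial genes the *Ifnar1* KO difference of *Selp* was 0.63 (exact permutation p = 0.4).

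Per *Cdh5* count, *Glycam1* was 7.43-fold lower and *Chst4* 4.58-fold lower in *Tlr7* KO glands (exact permutation p = 0.0536 for each), with all *Tlr7* KO mice below all WT mice. The size of the *Chst4* difference depends on the number of counts added. Its log2 difference of -2.20 became -3.22 with 0.1 counts added (exact permutation p = 0.0714) and -1.20 with 2 added (exact permutation p = 0.0536). *Icam1* was 1.95-fold lower (exact permutation p = 0.0714) and *Ackr1* 1.92-fold lower (exact permutation p = 0.0893), with overlap. Without *Tlr7* KO 2 the exact permutation p was 0.0286 for *Glycam1* and for *Icam1*. *Fut7* was 1.62-fold lower (exact permutation p = 0.321), and 0.0286 without *Tlr7* KO 2. *Sele* was 1.99-fold higher (exact permutation p = 0.196). In *Ifnar1* KO glands the ratio was 4.30-fold lower for *Glycam1*, 2.63-fold lower for *Chst4* and 2.57-fold lower for *Icam1* (exact permutation p = 0.1 for each), 3.05-fold lower for *Fut7* (exact permutation p = 0.2) and 1.25-fold lower for *Ackr1* (exact permutation p = 0.3). Without *Ifnar1* KO 3 the log2 difference went from -2.11 to -0.70 for *Glycam1*, from -1.40 to -0.77 for *Chst4* and from -1.61 to -0.98 for *Fut7*. With every mouse kept, adding 0.1 or 2 counts gave -2.21 or -0.64 for *Chst4* and -2.44 or -0.81 for *Fut7*. Divided by the sum of all endothelial genes instead, *Glycam1*, *Chst4* and *Ackr1* differed in *Tlr7* KO glands with exact permutation p = 0.0357, and *Vcam1* and *Icam1* with the smallest possible p of 0.0179.

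**Figure D3:**
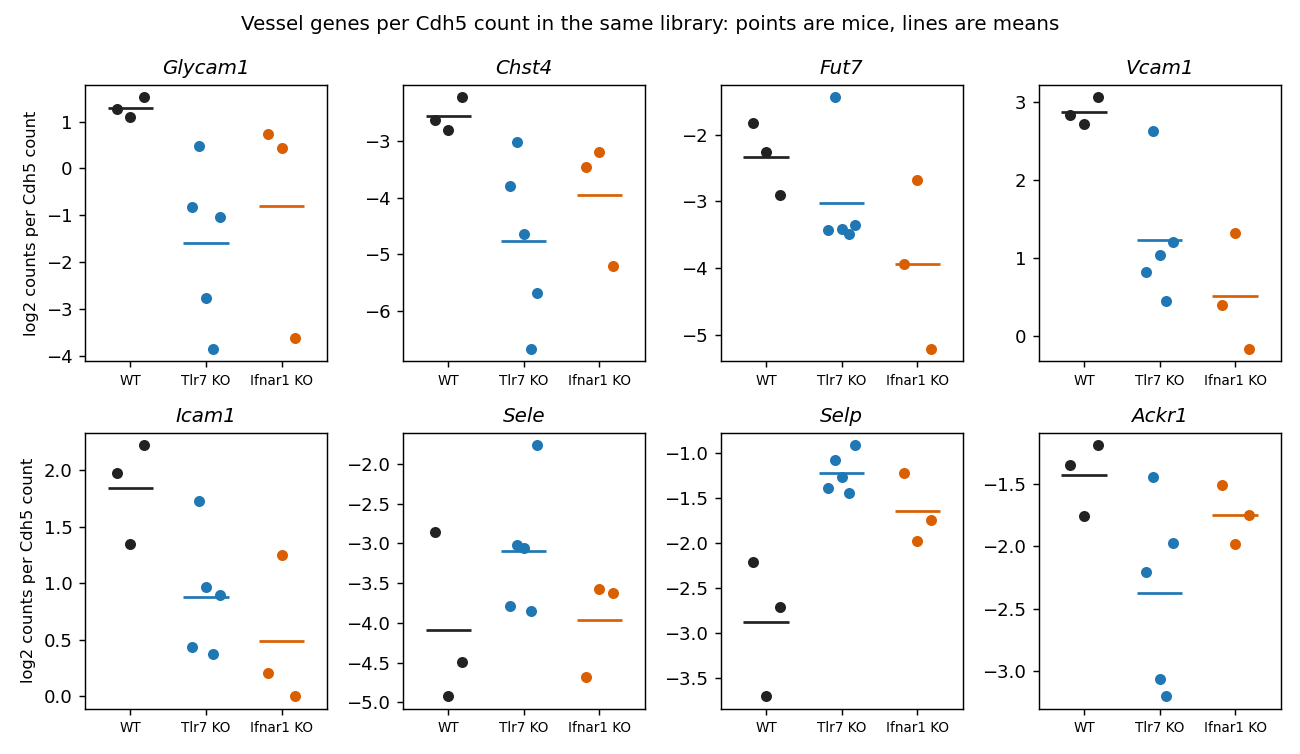
Counts of each vessel gene per *Cdh5* count in the same library on a log2 scale, where points are mice and lines are group means. *Vcam1*, *Glycam1* and *Chst4* lay below WT in every knockout mouse, whereas *Selp* lay above WT in every knockout mouse.

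Mice ranked alike across most of these genes. WT 2 was the lowest WT mouse for all of the 9 genes but *Fut7*, *Tlr7* KO 2 was the highest *Tlr7* KO mouse for *Glycam1*, *Chst4*, *Vcam1*, *Icam1*, *Fut7* and *Ackr1*, and *Ifnar1* KO 3 was the lowest *Ifnar1* KO mouse for all but *Sele*. The same mice stood out in the lymphocyte genes. The sum of 6 T cell genes was 18.6 CPM in WT 2 against 62.9 and 48.7 in WT 1 and 3, 21.5 in *Tlr7* KO 2 against 4.40 to 9.13 in the other *Tlr7* KO mice, and 1.30 in *Ifnar1* KO 3 against 3.61 and 11.4. The sum of 6 B cell genes was 71.3 CPM in WT 2 against 249.6 and 215.2, 43.3 in *Tlr7* KO 2 against 5.24 to 18.1, and 2.30 in *Ifnar1* KO 3 against 8.95 and 18.3. Of the B cell genes all 6 were lower in each knockout and of the T cell genes 5, and none was at 0 in a group, where 17.4% and 12.4% of all tested genes were lower. *Ms4a1*, which encodes CD20, was at -4.50 in *Ifnar1* KO and *Cd79b*, a part of the B cell receptor, at -3.22 in *Tlr7* KO glands. The sum of the 6 macrophage genes was 113.0 to 198.9 CPM in WT, 70.1 to 100.4 in *Tlr7* KO and 31.9 to 67.6 in *Ifnar1* KO mice, and 3 were lower in each knockout. The part of these cells in the levels of *Vcam1*, *Icam1*, *Fut7* and *Pecam1*, which leukocytes or stromal cells can also make, was not tested.

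Across the 11 mice the Pearson r of log2 CPM between *Vcam1* and *Icam1* was 0.976, and between *Glycam1* and *Chst4* 0.927 and *Glycam1* and *Ackr1* 0.92. *Chst4* had at most 4 counts in any knockout mouse, which limits what its r can show. *Selp* had r = -0.02 with *Vcam1* and -0.09 with *Glycam1*. These values are a description over mice of 3 groups that differ in level, in libraries that share the scaling. The genes with a pattern most like *Vcam1*, among those with a mean of at least 1 CPM, were *Rhoh* (0.99), *Cd53* (0.989) and *Ltb* (0.988), and those most like *Icam1* were *Ciita*, *Tagln2* and *Vsir* (0.987 each). For *Fut7* they were *Cd5* (0.971), *Pim1* (0.969) and *Lag3* (0.968), and for *Ackr1* *Ccr6* (0.975), *Tcof1* and *Pds5b* (0.97 each). *Chst4* and *Sele* had too few counts for this search. For *Glycam1* they were *Cdc42se2* (0.948), *Tubb2b* (0.945) and *Prcp* (0.944), for *Selp* *Tk2* (0.923), *Spata13* (0.91) and *Jrk* (0.902), and for *Cdh5* *Apaf1* (0.951), *Arl8a* (0.941) and *Myo5a* (0.938).

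The other genes of these pathways were counted from fixed lists, to be read beside the 17.4% lower and 15.3% higher of all tested genes in *Tlr7* KO and the 12.4% and 6.76% in *Ifnar1* KO glands. Without WT 1, WT 3 or *Ifnar1* KO 1 or 3 at most 2 genes of any list were called in *Ifnar1* KO glands, so the *Ifnar1* KO counts below rest on those mice. In *Tlr7* KO glands the counts without WT 1 were 4 for the enzymes and scaffolds, 3 for the lymphotoxin, TNF and NF-kB genes and 3 for the T cell genes, and without WT 3 they were 5, 3 and 3. Without *Tlr7* KO 1 or *Tlr7* KO 3 the enzymes and scaffolds came to 5 and 4, and the lymphotoxin, TNF and NF-kB genes came to 5 without *Tlr7* KO 1, 3 or 4.

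The enzymes and scaffolds that build the venular selectin ligand beside *Glycam1*, *Chst4* and *Fut7* moved in both directions. Of 11 genes tested, 5 were lower and 3 higher in *Tlr7* KO, and 4 were lower and 1 higher in *Ifnar1* KO glands, with medians of -0.70 and -1.36. *Chst2*, the other N-acetylglucosamine sulphotransferase of the ligand, fell by 1.69 ± 0.415 in *Tlr7* KO (edgeR adjusted p = 0.0142) and fell by 2.52 ± 0.393 in *Ifnar1* KO glands (edgeR adjusted p = 0.0211). *Chst1*, a keratan sulphate sulphotransferase that stood at 187.7 ± 1.40 CPM in WT glands (SD, n = 3), rose by 0.43 ± 0.0864 (edgeR adjusted p = 0.00676) and by 0.87 ± 0.198 (edgeR adjusted p = 0.0286). The rise in *Tlr7* KO glands depends on the TMM scaling. By library size only the median of all genes went from -0.04 to -0.54 there, a shift larger than this rise. The sum of this list, set mainly by *Chst1*, was 246.6 to 280.5 CPM in WT, 313.2 to 352.0 in *Tlr7* KO and 350.9 to 478.1 in *Ifnar1* KO mice. Without TMM factors the sums of WT and knockout mice overlap.

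Most partners of the vessel genes on leukocytes were lower in the knockouts. Of 9 counter-receptors 6 were lower in *Tlr7* KO (17.4% of all tested genes) and 7 in *Ifnar1* KO glands (12.4%) and none was higher, with medians of -1.51 and -2.07. *Cd44*, the hyaluronan receptor, had the smallest change among those called, -1.31 ± 0.346 in *Tlr7* KO glands (edgeR adjusted p = 0.0186). All 6 tested genes of chemokines and their receptors were lower in both knockouts, and the receptors among them are carried by lymphocytes. The changes ran from *Cxcr5*, the receptor of CXCL13 on B cells (-3.64 ± 0.633 and -4.52 ± 0.723, edgeR adjusted p = 0.0039 and 0.0216), to *Cxcl12* (-0.60 ± 0.134 and -1.23 ± 0.137, edgeR adjusted p = 0.00973 and 0.0207). The part of lymphocyte numbers in these values was not tested. *Ccl21a*, the chemokine of lymph node venules, was too low to test and had no count in any *Tlr7* KO mouse.

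Of 12 genes of the lymphotoxin, TNF and NF-kB pathways, which in lymph nodes keep venules in their high form, 8 were lower in each knockout and none was higher, with medians of -0.86 and -1.49. *Ltb*, which encodes lymphotoxin beta, fell by 2.68 ± 0.526 in *Tlr7* KO (edgeR adjusted p = 0.00598) and fell by 4.11 ± 0.655 in *Ifnar1* KO glands (edgeR adjusted p = 0.0216). *Tnfrsf1a*, a receptor of TNF, had the smallest change among those called, -0.38 ± 0.0773 in *Tlr7* KO glands (edgeR adjusted p = 0.00681). Of 9 other junctional adhesion genes, 2 were lower in *Tlr7* KO and 1 in *Ifnar1* KO glands, close to the 17.4% and 12.4% of all tested genes, with *Icam2*, a constitutive ligand of LFA-1 on endothelium and leukocytes, at -2.56 ± 0.521 in *Tlr7* KO (edgeR adjusted p = 0.00681) and -2.50 ± 0.538 in *Ifnar1* KO glands (edgeR adjusted p = 0.026). *Pvr*, a nectin-like molecule, was at -1.12 ± 0.113 in *Tlr7* KO glands (edgeR adjusted p = 0.00063).

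Genes of other cells of the vessel wall and gland were counted beside the same shares, 17.4% lower in *Tlr7* KO and 12.4% in *Ifnar1* KO glands. Of 5 mural cell genes tested 1 was lower in each knockout, *Notch3* in *Tlr7* KO (-0.94 ± 0.166, edgeR adjusted p = 0.00407) and *Des* in *Ifnar1* KO glands (-4.36 ± 0.775, edgeR adjusted p = 0.0227). The sums of the list were 16.9 to 32.8, 6.92 to 18.6 and 6.07 to 7.66 CPM in WT, *Tlr7* KO and *Ifnar1* KO mice. *Des* weighed heavily in the WT sums, at 15.65 ± 10.6 CPM in WT, 3.09 ± 4.86 in *Tlr7* KO and 0.76 ± 0.43 in *Ifnar1* KO glands (SD). Of 6 fibroblast genes *Dcn* and *Pdgfra* were lower in both knockouts, with sums of 75.0 to 168.3, 92.7 to 165.9 and 83.3 to 116.6 CPM. None of 3 lymphatic endothelial genes tested, *Lyve1* and *Pdpn* the most abundant, was called, with sums of 2.32 to 5.16, 1.75 to 3.06 and 1.01 to 1.91 CPM and *Mmrn1* not in the table. Of 6 epithelial genes *Krt19* was lower in both knockouts and, with TMM scaling, *Krt8* and *Aqp5* were higher in *Tlr7* KO glands. Leaving out 1 mouse at a time, the calls in *Tlr7* KO glands ran from 1 to 3 for mural, 0 to 2 for fibroblast, 1 to 2 for platelet, 2 to 5 for macrophage and 1 to 4 for epithelial genes.

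**Figure D4:**
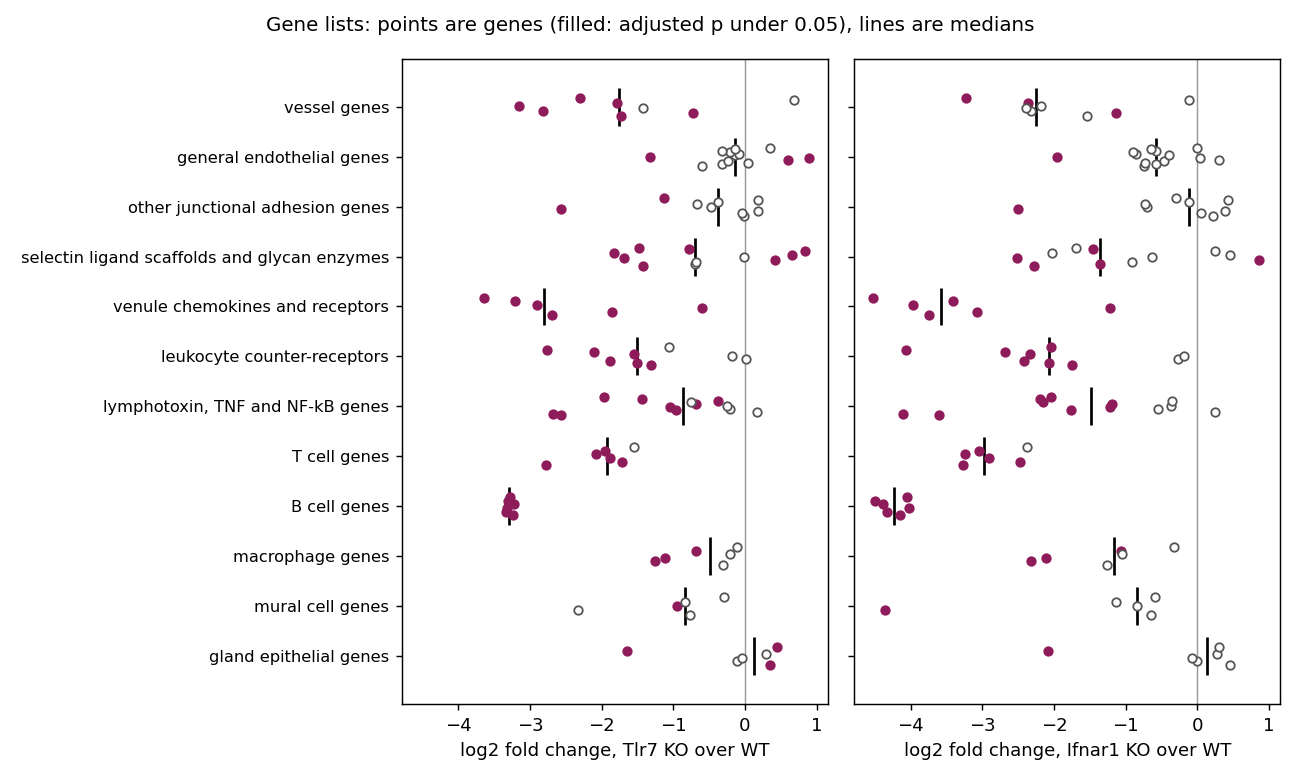
Fitted log2 fold change of each knockout over WT for the genes of 12 lists, where points are genes (filled where the adjusted p was under 0.05) and vertical lines are medians. The medians of the vessel genes were -1.76 and -2.26, those of the general endothelial genes -0.14 and -0.57, and those of the B cell genes -3.29 and -4.24.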

How the data were processed

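Whole lacrimal glands were sequenced by the authors on an Illumina instrument, 1 library per mouse. The authors quantified transcripts with salmon 0.9.1 and summed them to genes with tximport, and deposited the estimated counts rounded to whole numbers for 19058 genes. The name of this table calls the values normalized, yet column sums differ between mice as raw counts do, and they were used as counts. The other deposited table holds counts for 39017 genes, with HISAT2 2.1.0 in the submitters' processing notes and the counter not given in the sources used here. Its 1 column that matches none of the samples is named as a further *Ifnar1* KO library and was not used. The authors left 1 *Ifnar1* KO library out of their own analysis, for its place beside WT and its inflammation. Totals were 20512315 to 28814250 counts, and few counts limit *Chst4*, *Fut7*, *Sele* and *Selp*.

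R 4.3.3 was used with edgeR 4.0.16 (TMM, quasi-likelihood test) in separate fits for each pair of groups, on genes whose counts in WT mice came to 30 or more. Benjamini-Hochberg adjustment ran over all genes tested, and an adjusted p under 0.05 was called. DESeq2 1.42.0 was an alternative, with the other settings named in the closing section. Coordinates are of GENCODE M21, and *Ackr1* was matched by identifier. Genes named are the 10 vessel genes, *Tlr7* and *Ifnar1*, the lowest and highest called gene of each list (the 2 most abundant where none was called) and the 3 genes most like each vessel gene. A gene that this rule names is not reported here. *Aqp5*, *Epcam*, *Flt1*, *Gp9*, *Mmrn1*, *Ccl21a* and *Vwf* were chosen after seeing their values. The vessel genes and lists were chosen with earlier results of these data known. Whether the mice were littermates or housed together is not known, and p-values measure the spread between these mice.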

Additional observations from a re-analysis of the deposited data

Results flagged for a closer look

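Of 17 measures tested in the 5 *Tlr7* KO mice, 5 had a mouse far from the others (gap to the nearest mouse over the whole range, Dixon's 95% limit), *Tlr7* KO 2 in 4 and *Tlr7* KO 5 in 1. Chance alone marks about 1 in 20 such groups. *Tlr7* KO 2 stood at 7.65 CPM for *Vcam1*, 4.08 CPM for *Icam1* and 0.435 CPM for *Fut7*, each the highest of the 5 mice. Its *Fut7* count per *Cdh5* count was -1.44 on the log2 scale, also the highest. *Tlr7* KO 5 stood at 0.369 CPM for *Sele*, from 7 counts. Without *Tlr7* KO 2, 6 of the 8 tested vessel genes were called lower in *Tlr7* KO glands, as with it, with *Fut7* in place of *Cdh5*.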

How the results depend on the processing

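Lower levels of *Glycam1*, *Vcam1* and *Icam1* in *Tlr7* KO glands passed the test without any single mouse, and few mice and low counts limit the rest. Over all genes, the 4564 calls of *Tlr7* KO against WT became 2200 when scaled by endothelial genes, 1969 at an adjusted p under 0.01 and 1688 with at least a 2-fold change, and ran from 2600 to 6663 leaving out 1 mouse. The 2677 of *Ifnar1* KO against WT became 1339 by library size only, 4074 by endothelial genes, 5124 in a single fit of 11 mice, 1 at 0.01 and 1615 with 2-fold change, and ran from 0 to 4666. The 250 between the knockouts became 878 by endothelial genes, 93 in the single fit, 577 with DESeq2, 30 at 0.01 and 132 with 2-fold change, and ran from 85 to 877. The vessel genes called in *Tlr7* KO (6) became 3 at 0.01 and ran from 3 without WT 1 or WT 3 to 7 without WT 2. Those in *Ifnar1* KO (3) became 6 in the single fit and 0 at 0.01, and ran from 0 to 5. Between the knockouts (0) they ran from 0 to 1.

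With the replicate block, 14, 0 and 502 genes and 0, 0 and 1 vessel genes were called in the 3 comparisons. Same-numbered mice had correlations of -0.14, -0.40 and 0.03 in *Tlr7* KO against WT and of -0.15, -0.44 and -0.27 in *Ifnar1* KO against WT, and the numbers were not taken to pair the mice. Between the knockouts they had 0.06, 0.34 and 0.26, and the vessel gene that passed with the block was *Vcam1* (-1.24, edgeR adjusted p = 0.0279). Not every mouse correlated best with its own number.

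Directions that turned were all of differences that did not pass. For *Selp* in *Ifnar1* KO against WT the log2 fold change was 0.51 by endothelial genes and ran from -0.49 to 0.41 leaving out 1 mouse. Between the knockouts *Chst4* was -0.20 with the replicate block and ran from -0.0861 to 1.03, and *Ackr1* ran from -0.0202 to 0.45. The log2 ratio of *Sele* to *Cdh5* in *Ifnar1* KO against WT was -0.00178 with 0.1 counts added and -0.46 over the summed endothelial genes, and ran from -0.28 to 0.75. The cause of these changes was not tested.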
